A study of Mus musculus with 2 samples.

Results

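Solute carrier genes, whose symbols begin with Slc and a family number or with Slco, were taken from the genes that a deposited list of cJUN binding peaks gives as the nearest to each peak. The members were all symbols in the column of 2 nearest genes that are Slc followed by digits or Slco followed by a digit. There were 45 such genes among 2963 listed gene names, and they were listed at 67 of 2741 peaks, in 68 pairings of a peak with a gene. The peaks come from chromatin immunoprecipitation and sequencing (ChIP-seq) with a rabbit polyclonal antibody to cJUN, set against input DNA, which was sonicated but not immunoprecipitated. Both libraries, 1 of each kind, were made from whole intestines of wild type C57BL/6 mouse embryos at E14.5, pooled from 1 litter of 8 embryos and kept for 24 h in transwell culture. The whole organ was used, so a peak cannot be assigned to epithelium, mesenchyme, nerve or another cell type. With 1 library per group no value carries a replicate error and no test between conditions was possible, and the sequencing depth is unknown here.

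Solute carriers are membrane proteins that move sugars, amino acids, peptides, ions, metals, vitamins, bile acids and organic anions, mostly by facilitated diffusion or by coupling to an ion gradient. In the intestine they take up nutrients at the apical face of the epithelium and release them at its base, while in neurons and glia related carriers clear neurotransmitters or load them into vesicles. cJUN is a subunit of AP-1, a dimeric transcription factor whose usual DNA site is TGACTCA or TGAGTCA, often at enhancers far from a gene. A listing here states only which genes lie nearest to a peak. It does not show that the gene is regulated from there.

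Solute carrier genes were listed at peaks about as often as other genes. Of 389 protein-coding Slc genes in a RefSeq gene table, 45 (11.6%, exact Clopper-Pearson 95% interval 8.56 to 15.2) were listed at a peak, against 12.5% of all 21900 protein-coding genes, a background that lies inside that interval. The share was 16.0% (7.17 to 29.1) for the ATP-driven ABC transporter genes, with 8 of 50 listed. It was 26.9% (18.2 to 37.1) for the potassium channel genes, with 25 of 93 listed. The interval of the potassium channel genes starts above the upper end of that of the Slc genes, and no test of the difference was made. All intervals cover counting error only, and 1 peak can count for a pair of neighbouring genes.

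The 45 genes belonged to 25 of the 57 numbered families in the gene table. The amino acid transporter family Slc7 had the most members listed, 6 of 16 (37.5%, 15.2 to 64.6), which were Slc7a2, Slc7a11, Slc7a12, Slc7a13, Slc7a14 and Slc7a15. The Slc30 family, which exports zinc or manganese from the cytosol, had 4 of 10 (40.0%, 12.2 to 73.8), namely Slc30a4, Slc30a8, Slc30a9 and Slc30a10. The mitochondrial carriers of Slc25, the largest family, also had 4 listed, but of 47 (8.51%, 2.37 to 20.4). These were the citrate carrier gene Slc25a1, the ornithine carrier gene Slc25a2, the glutamate carrier gene Slc25a18, and Slc25a54. Another 9 families had 2 listed genes each and 13 had 1. Both Slco6 genes of the table were listed (2 of 2, 15.8 to 100%). The 12.5% of all protein-coding genes lies inside the intervals of Slc30 and Slc25 and below those of Slc7 and, on 2 genes, Slco6. Families are pointed out here after their counts were seen, 57 were counted, and none was tested.

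In 32 families no gene was listed. They include the monocarboxylate transporters of Slc16 (0 of 14, interval 0 to 23.2%), the vesicular glutamate and phosphate transporters of Slc17 (0 of 9, 0 to 33.6%) and the glutamate and neutral amino acid transporters of Slc1 (0 of 7, 0 to 41.0%). The fatty acid transport proteins of Slc27 and the organic anion transporters of Slco1 had 0 of 6 each (0 to 45.9%). The upper ends of these intervals are above the background of 12.5%, so the families without a listed gene are not shown to be depleted. The Slc22 organic ion transporters had 1 of 25 (4.0%, 0.101 to 20.4), the gene Slc22a23, and the Slc35 nucleotide sugar transporters had 2 of 27 (7.41%, 0.910 to 24.3), the genes Slc35b3 and Slc35f1.

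**Figure D1:**
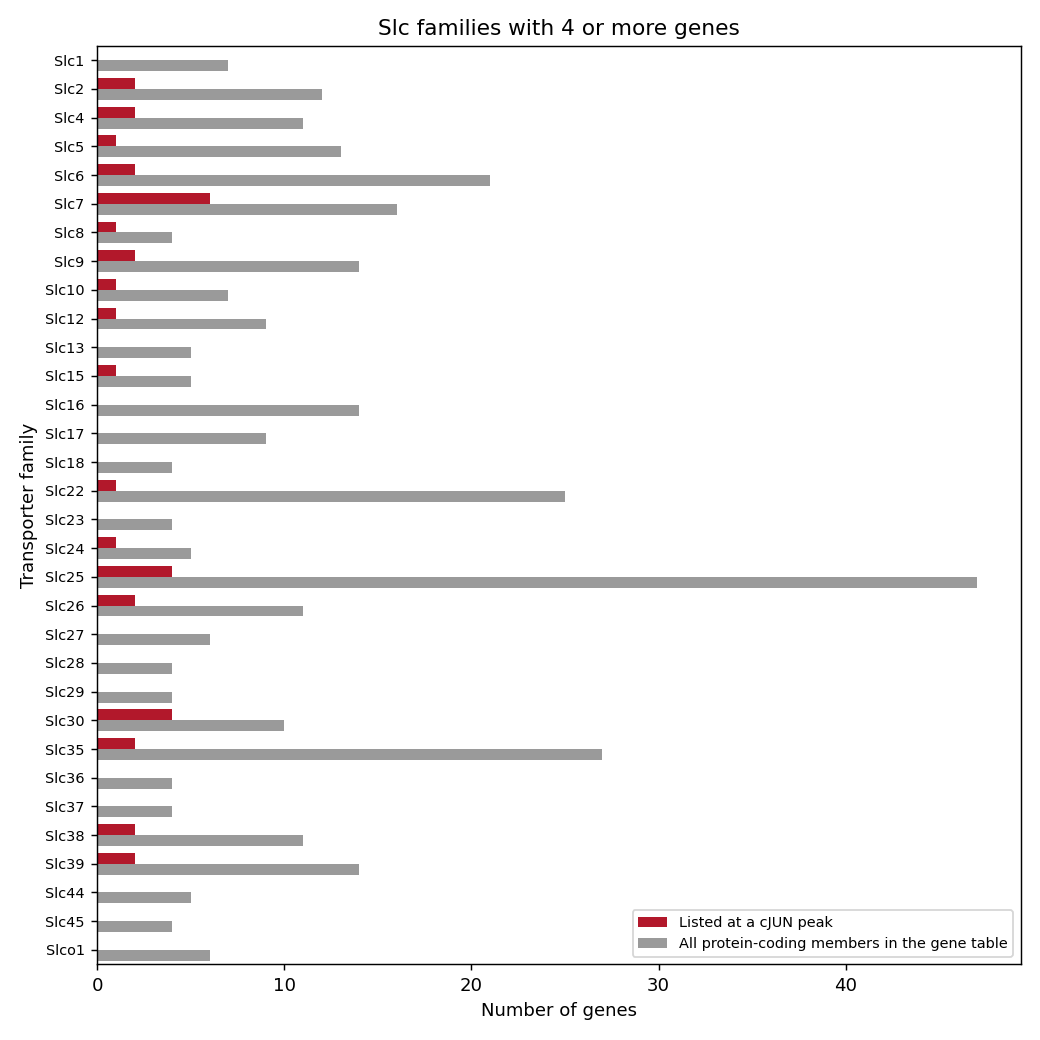
Number of genes in each Slc family with 4 or more protein-coding genes in the gene table. Upper red bars count genes listed at a cJUN peak and lower grey bars count all members, and of these 32 families 14 have no red bar, while Slc7 has the longest with 6 genes.

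Transporters that absorb nutrients in the intestine were listed in a share whose interval includes the background. Of a list of 44 intestinal nutrient, mineral and bile acid transporter genes, 4 had a peak listed (9.09%, exact interval 2.53 to 21.7, against 12.5% of all protein-coding genes). Slc34a2, the apical sodium-phosphate cotransporter gene, had a peak at chromosome 5 from 53426567 to 53426719 (mouse build mm9), 13.9 kb upstream of its start, at a fold over background of 17.82 and a peak score of 56.7. The fold and the score, 10 times the −log10 of the p-value, are the values of the authors' peak caller. Slc6a20b, on the list as a member of the imino acid transporters, had a peak at chromosome 9 from 123525178 to 123525323. It lay 16.4 kb downstream of the gene start, at fold 22.11 and score 70.13. Whether Slc6a20b itself acts in the intestine was not examined. For both genes the peak was nearer to the transporter gene than to its other listed gene, Anapc4 at 201 kb and Sacm1l at 86.3 kb.

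The other two nutrient transporter genes had more distant or shared peaks. Slc52a3, a riboflavin transporter gene, had a peak 45.0 kb downstream of its start at fold 14.63 and score 56.7, and that peak lay nearer to Scrt2, at 40.0 kb. Slc10a2, the gene of the sodium-dependent bile acid transporter of the ileum, had a pair of peaks, on either side of its start. The upstream one lay 118 kb away with a score of 68.19 and the downstream one 212 kb away with a score of 61.3, both with a fold of 18.42. The 40 genes of the list with no peak include those of the main glucose, fructose and peptide carriers of the gut, Slc5a1, Slc2a2, Slc2a5 and Slc15a1, and of the iron carriers Slc11a2 and Slc40a1. Slc6a14, an intestinal and airway amino acid transporter gene outside the list, had a peak 34.3 kb upstream at fold 9.5 and score 69.46.

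Of 23 neurotransmitter transporter genes, Slc5a7 alone was listed (4.35%, exact interval 0.110 to 21.9, against 12.5% of all protein-coding genes). That background lies inside the interval, so these genes are not shown to be depleted. Slc5a7 encodes the high-affinity choline transporter, which supplies choline for acetylcholine synthesis in cholinergic nerve endings, enteric neurons included. It had 3 peaks on chromosome 17. The strongest, from 54210943 to 54211064, lay 227 kb downstream of its start at fold 25.79 and score 76.72. A second lay 171 kb downstream, at fold 14.74 and score 58.82. The third lay 231 kb upstream, at fold 14.74 and score 58.6. Both downstream peaks were nearer to the sulfotransferase gene Sult1c1, at 81.0 and 137 kb, while the upstream peak had Slc5a7 as its nearer gene. The 22 genes without a peak include the serotonin and noradrenaline uptake carriers Slc6a4 and Slc6a2, the vesicular monoamine and acetylcholine carriers Slc18a2 and Slc18a3, and the glial glutamate carriers Slc1a2 and Slc1a3.

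Peaks lay far from the starts of the Slc genes they were listed with, as they did for other genes. Whether a downstream peak lay inside its gene was not examined. The median distance from a peak to the start of its Slc gene was 140 kb (binomial 95% interval of the median 72.7 to 197) with quartiles of 44.7 and 283 kb over 68 pairings, against a median of 144 kb (135 to 150.3) with quartiles of 49.0 and 352 kb over 4626 pairings of other genes. With the nearer gene of each peak alone, the median was 78.5 kb for Slc genes, against 89.0 kb for all genes. Within 50 kb lay 19 of the 68 pairings (27.9%, 17.7 to 40.1), against 25.6% of all pairings. Beyond 500 kb lay 12 (17.6%, 9.47 to 28.8), against 16.3% for other genes. Upstream of the gene start lay 36 of the 68 (52.9%, 40.4 to 65.2), against 48.1% of all pairings. In 30 of 68 pairings (44.1%, 32.1 to 56.7) the Slc gene was the nearer gene of the peak, against 56.3% (54.9 to 57.7) for other genes. A gene listed alone at a peak counts as its nearer gene, which raises these shares. Of the Slc peaks, 2 listed the Slc gene alone and 65 listed 2 genes. The whole list has 4694 pairings at 2635 peaks, so peaks with a single gene were more common there. The shares are therefore not directly comparable, and peaks with 2 genes were not compared separately. At each of their peaks, 20 of the 45 Slc genes were the farther gene. The deposited sign of a distance was read as upstream when negative and downstream when positive on the gene's own strand. That reading placed 198 of 204 genes with peaks on both sides (97.1%) at 1 start position to within 1 bp, and reading the sign along the chromosome did so for 107.

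**Figure D2:**
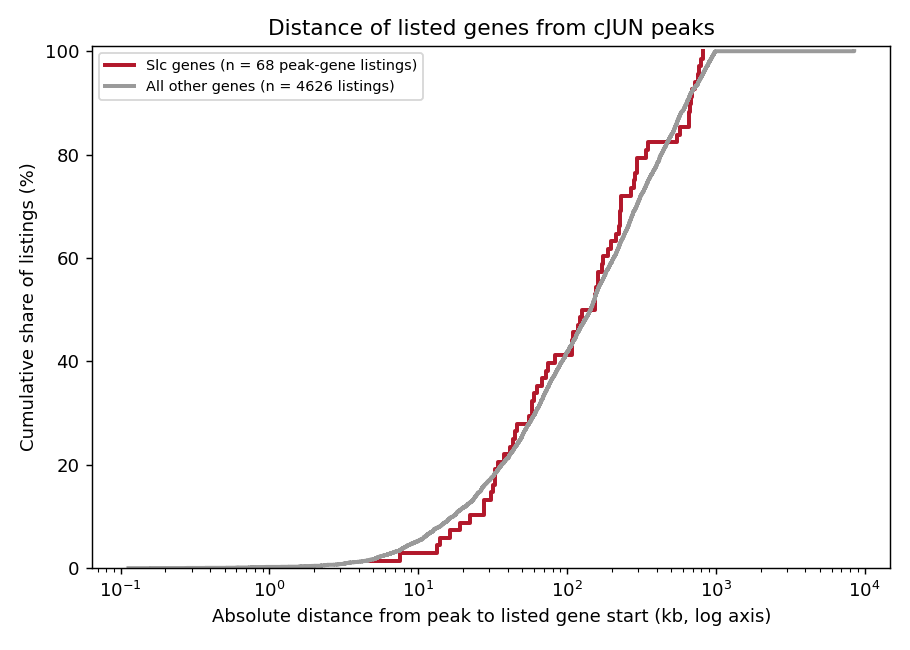
Cumulative share of pairings of a peak with a listed gene against their absolute distance in kb on a log axis, in red for 68 pairings with Slc genes and in grey for 4626 pairings with other genes. The curves lie close together, with medians of 140 kb for Slc genes and 144 kb for other genes.

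No Slc gene had a peak at its listed start, the position from which the deposited distances were measured. Other promoters of these genes were not compared with the peaks. The nearest was the peak of Slc2a9, a urate and sugar transporter gene, at chromosome 5 from 38867090 to 38867224, 4.39 kb downstream of its start, at fold 18.86 and score 67.23. Next came Slc7a2, a cationic amino acid transporter gene, with a peak 7.50 kb downstream at chromosome 8 from 41955162 to 41955339, at fold 14.74 and score 62.97. These 2 were the only pairings within 10 kb (2.94%, 0.358 to 10.2), against 5.30% for other genes. Slc7a12, which encodes an amino acid exchanger subunit, had a peak 13.5 kb upstream at fold 17.59 and score 73.67. Slc24a5, which encodes a sodium-calcium exchanger of pigment cells, had a peak 19.0 kb upstream at fold 14.74 and score 58.6. With Slc34a2 and Slc6a20b these made 6 genes with a peak within 20 kb, or 6 of the 68 pairings (8.82%, 3.31 to 18.2), against 11.7% for other genes. Each of the 6 was the nearer gene of its peak, which was not counted for other genes at such distances.

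At several of the next nearest Slc genes the peak had a closer neighbour. Slc25a2 had a pair of peaks, 22.3 and 62.9 kb downstream of its start, both with a fold of 22.11, and the farther was nearer to the protocadherin gene Pcdhb22. Slc25a1 had a peak 27.5 kb upstream with a score of 56.7, and Slc25a18 had a peak 27.7 kb downstream with a score of 63.58. Both were the farther gene, behind Vpreb2 at 24.7 kb and the proton pump gene Atp6v1e1 at 21.3 kb. Slc9a7, the gene of an organellar sodium-proton exchanger on chromosome X, had a peak 31.1 kb upstream with a score of 61.3, and was nearer to it than Rp2h at 41.6 kb.

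**Figure D3:**
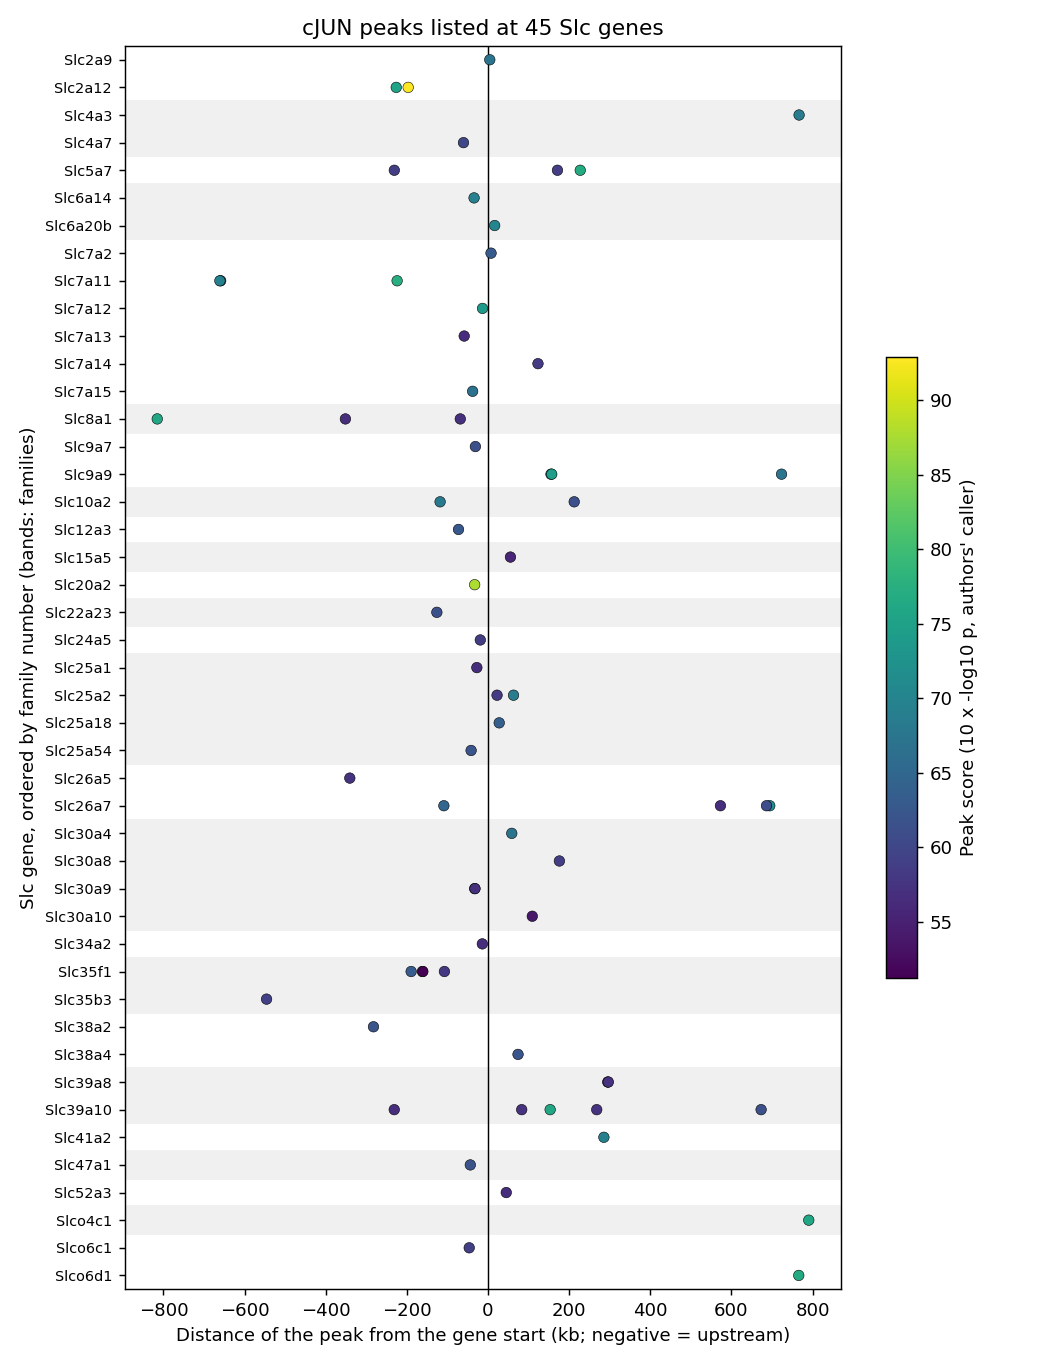
Signed distance in kb of each cJUN peak from the start of its listed Slc gene, negative upstream, for 45 genes ordered by family number, with grey and white bands separating families. Each point is a peak coloured by its score, and the points lie on both sides of the start, from 815 kb upstream at Slc8a1 to 791 kb downstream at Slco4c1.

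The peaks at Slc genes were close in strength to the rest of the list, without its extremes of score. Their median fold was 17.59 (interval of the median 14.74 to 18.42), against 16.75 for the other 2674 peaks, and their median score was 61.93 (58.97 to 66.77), against 61.1 for the others. The highest score at an Slc gene was 92.92. None of the 67 peaks reached a score of 100 (0%, exact interval 0 to 5.36), against 4.63% of all peaks, which lies inside that interval. A fold under 10 was found at 5 of the 67 (7.46%, 2.47 to 16.6), against 12.1% of all peaks. None lay in a run of at least 5 peaks spaced no more than 100 kb apart (0%, 0 to 5.36), against 8.04% (7.04 to 9.14) of the others, and no test of that difference was made.

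**Figure D4:**
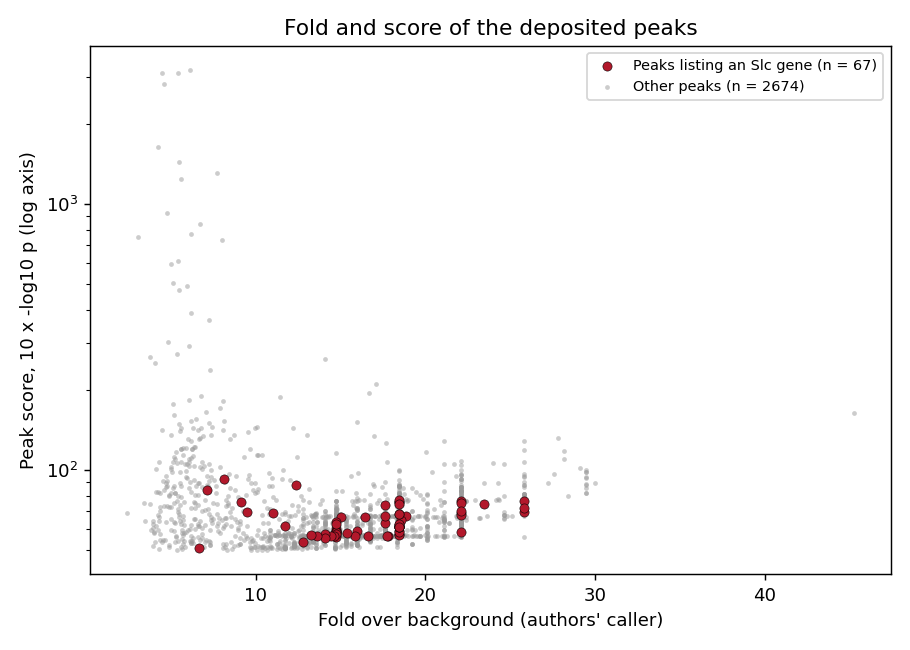
Fold over background against peak score on a log axis, both as the authors' caller gave them, in red for the 67 peaks that list an Slc gene and in grey for the other 2674. The red points lie at scores of 51.19 to 92.92 and folds of 6.64 to 25.79, inside the main body of grey points and below those with scores of 100 and more.

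The strongest peak by score was at Slc2a12, a glucose transporter gene. This peak, at chromosome 10 from 22168074 to 22168264, lay 197 kb upstream at score 92.92 and fold 8.11. A weaker one lay 226 kb upstream with a score of 75.38 but a fold of 22.11. Both were nearer to Raet1d, at 86.5 and 57.0 kb. Slc20a2, a sodium-phosphate cotransporter gene of many tissues, had the next highest score, 87.75, at a peak with a fold of 12.36. That peak, at chromosome 8 from 23554189 to 23554394, lay almost midway between Slc20a2, 32.9 kb away, and Mrps31, 32.5 kb away.

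The 3 listed organic anion transporter genes differed in distance and score. Slco6d1 had a peak 766 kb downstream at score 76.49 and fold 22.11, and Slco4c1 had one 791 kb downstream at score 76.02 and fold 9.12. Each was the farther gene, behind Cntnap5b at 586 kb and St8sia4 at 414 kb. The peak of Slco6c1 was much nearer, 46.3 kb upstream, at score 58.97 and fold 15.99, and Slco6c1 was its nearer gene. By fold, the top value of 25.79 was shared by peaks at Slc5a7, Slc26a7 and Slc41a2, followed by 23.45 at a peak of Slc9a9. The peak of Slc41a2, a magnesium transporter gene, lay 286 kb downstream of its start and 66.8 kb from Chst11.

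Most of the genes had a single peak, and 7 of the 45 (15.6%) had 3 or more, against 10.9% of all listed names. Slc39a10, a zinc importer gene, had 5 peaks on chromosome 1 between 46237728 and 47141986, a span of 904 kb. Downstream peaks lay at 83.1, 153, 268 and 673 kb from its start, with scores of 57.13, 75.99, 57.34 and 61.3 and folds of 18.42 each. The upstream one, 231 kb away, reached score 56.7 and fold 17.71, and lists no other gene. Slc39a10 was the nearer or the only gene for 4 of the 5. The related zinc and manganese importer gene Slc39a8 had a pair of peaks, 295 and 296 kb downstream, with scores of 55.93 and 57.34, both nearer to Bank1.

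Slc35f1 and Slc26a7 had 4 peaks each. Those of Slc35f1, of the nucleotide sugar transporter family, were all upstream, at 107, 161, 162 and 189 kb, with scores of 57.96, 51.19, 84.1 and 63.39. The middle pair had folds of 6.64 and 7.15, the lowest of all peaks at Slc genes, against folds of 14.74 and 17.59 for the outer ones. Slc26a7, which encodes an anion exchanger or channel, had 3 peaks far downstream, at 573, 686 and 694 kb, with folds of 13.6, 18.42 and 25.79. These 3 were nearer to Runx1t1, and the one upstream, 109 kb away, was nearer to Lrrc69, so that Slc26a7 was the farther gene at each of its peaks.

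The remaining genes with 3 peaks, apart from Slc5a7, encode exchangers. Slc7a11, the cystine-glutamate exchanger gene, had all its peaks upstream, at 224, 659 and 661 kb, with scores of 77.43, 58.16 and 69.3. Slc8a1, the gene of a plasma membrane sodium-calcium exchanger abundant in heart and smooth muscle, also had upstream peaks alone, at 68.2, 351 and 815 kb, with scores of 56.93, 56.7 and 76.0. In contrast, those of Slc9a9, the gene of an endosomal sodium-proton exchanger, were all downstream, at 155, 157 and 723 kb, with scores of 66.77, 74.42 and 67.58. The nearest peak of Slc7a11 had Slc7a11 as the nearer gene, as did 2 of the 3 peaks for Slc8a1 and for Slc9a9. Over all 45 genes, 23 had peaks upstream alone, 18 downstream alone and 4 on both sides. Of the 45, 33 had a single peak (73.3%, against 68.5% of other listed names) and so could lie on 1 side only. The counts by side were not made for other genes.

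**Figure D5:**
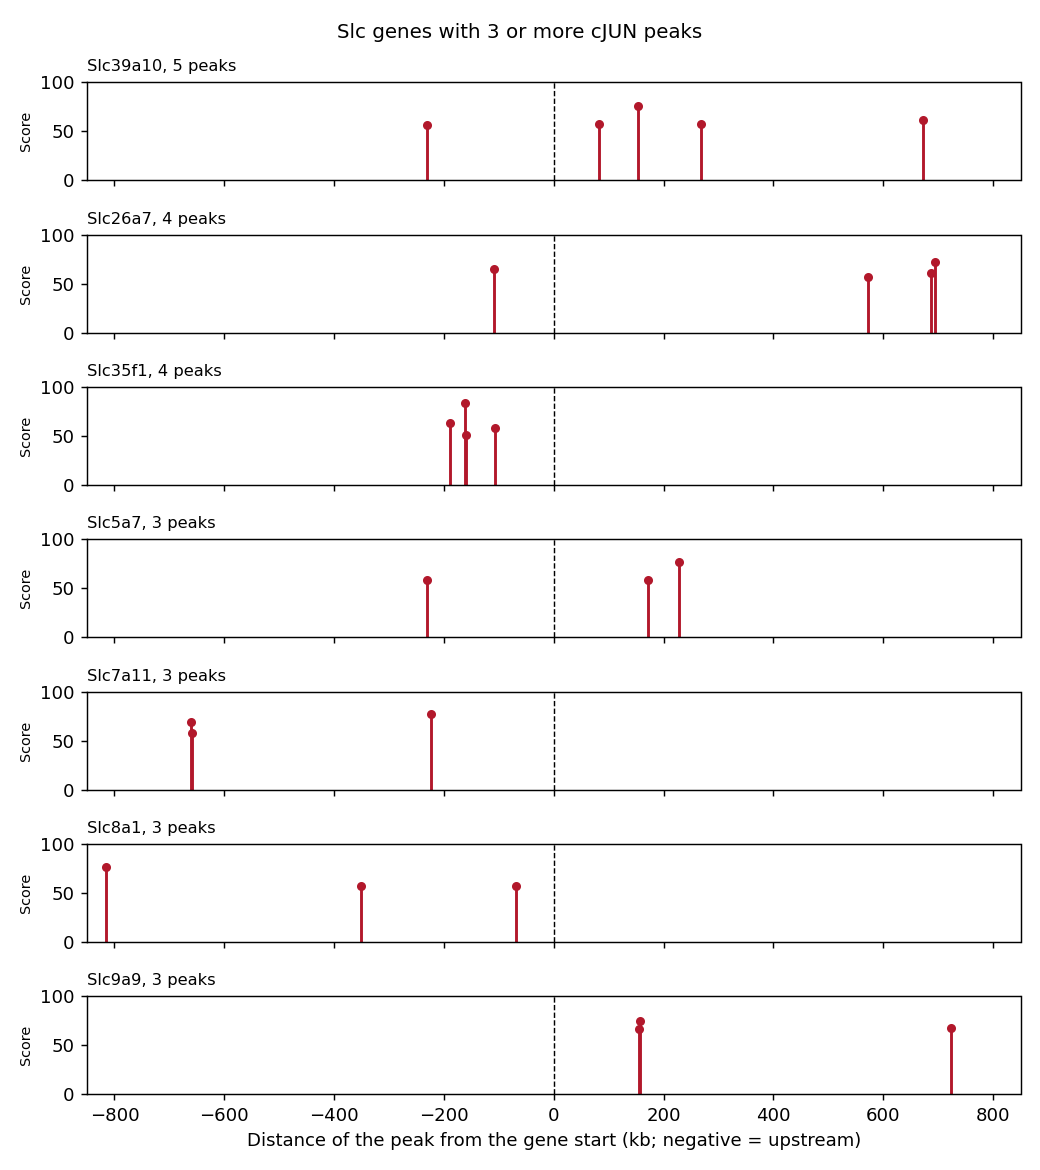
Position and score of the peaks at the 7 Slc genes with 3 or more peaks, with the signed distance in kb from the gene start (dashed line, negative upstream) on the horizontal axis and the score as the height of each line. The peaks of Slc35f1, Slc7a11 and Slc8a1 lie upstream, those of Slc9a9 downstream, and those of Slc39a10, Slc26a7 and Slc5a7 on both sides, and peaks within 2 kb of each other overlap in the plot.

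Some of these peaks came in close pairs. At 5 genes, Slc7a11, Slc9a9, Slc30a9, Slc35f1 and Slc39a8, a pair of peaks lay within 2 kb of each other. The pairs hold 10 of the 67 peaks (14.9%, exact interval 7.40 to 25.7), against 9.81% of all peaks with another peak within 2 kb. Slc30a9, of the zinc transporter family, had its pair 32.0 and 32.9 kb upstream, with scores of 57.03 and 74.58, and both were nearer to Tmem33. A single peak was listed at a pair of Slc genes, Slc38a2 and Slc38a4, which encode sodium-coupled amino acid transporters. This peak, at chromosome 15 from 96812293 to 96812426, lay 74.0 kb downstream of the start of Slc38a4 and 282 kb upstream of that of Slc38a2, at fold 18.42 and score 62.02.

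The other 18 genes had 19 peaks, at 34.3 to 767 kb, with scores of 53.7 to 69.46 and folds of 9.5 to 18.42. Besides Slc6a14, Slc39a8 and Slco6c1, described above, they include bicarbonate transporter genes, Slc4a7 with a peak 60.4 kb upstream and Slc4a3 with one 767 kb downstream that lists no other gene. Slc7a13, Slc7a14 and Slc7a15 of the amino acid transporters had peaks at 58.7, 123 and 37.9 kb. Among the zinc and manganese exporters the distances were 58.6 kb for Slc30a4, 176 kb for Slc30a8, the zinc transporter of insulin granules, and 109 kb for the manganese exporter gene Slc30a10. The rest were Slc12a3, a sodium-chloride cotransporter gene of the kidney, Slc15a5, Slc22a23, Slc25a54, Slc26a5, which encodes the hair cell motor protein prestin, Slc35b3, and Slc47a1, which encodes an exporter of organic cations.

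The promoters of these genes, where a RefSeq window was at hand, were read for TGANTCA, in which N is any base. This pattern is looser than the usual AP-1 site, which has C or G in the middle. A window of 250 bases before the start (RefSeq, build GRCm38.p6) was found for 36 of the 45 genes, in 42 windows. TGANTCA, which reads the same on both strands, was present in 5 of the 42 windows (11.9%). It was present in 5.48% of 347 windows of Slc genes without a peak and 6.75% of all 32851 windows. No interval was computed for these shares and the difference was not tested, so 5 windows do not show enrichment. The related letters TGACGTCA, also the same on both strands and no match to TGANTCA, were in 0 of the 42, against 1.55% of all windows. The 5 windows with TGANTCA are printed, with those letters in capitals. The middle base is C in Slc2a9 and G in Slc6a14, as in the usual AP-1 site. It is A in Slc9a9 and T in Slc10a2 and Slc24a5. The 5 include the gene with the nearest peak, Slc2a9, and the bile acid transporter gene Slc10a2. The windows of Slc34a2 and Slc6a20b, genes of the nutrient transporter list with a peak within 20 kb, held no match.
Slc2a9, chr5:38483386-38483635, minus strand: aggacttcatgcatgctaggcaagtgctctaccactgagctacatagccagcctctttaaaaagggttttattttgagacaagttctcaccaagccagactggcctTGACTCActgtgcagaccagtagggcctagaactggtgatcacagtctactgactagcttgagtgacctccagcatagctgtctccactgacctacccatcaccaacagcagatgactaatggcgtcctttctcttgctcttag
Slc6a14, chrX:21714650-21714899, plus strand: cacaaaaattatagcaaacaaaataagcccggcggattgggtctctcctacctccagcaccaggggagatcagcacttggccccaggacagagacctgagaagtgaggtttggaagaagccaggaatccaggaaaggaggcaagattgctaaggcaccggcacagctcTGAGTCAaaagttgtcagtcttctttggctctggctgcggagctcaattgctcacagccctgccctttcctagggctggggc
Slc9a9, chr9:94669642-94669891, plus strand: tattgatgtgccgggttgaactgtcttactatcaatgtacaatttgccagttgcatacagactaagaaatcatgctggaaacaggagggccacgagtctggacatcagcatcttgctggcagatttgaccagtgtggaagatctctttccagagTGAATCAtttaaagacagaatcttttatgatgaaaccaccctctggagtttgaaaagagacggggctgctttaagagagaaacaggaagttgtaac
Slc10a2, chr8:5105288-5105537, minus strand: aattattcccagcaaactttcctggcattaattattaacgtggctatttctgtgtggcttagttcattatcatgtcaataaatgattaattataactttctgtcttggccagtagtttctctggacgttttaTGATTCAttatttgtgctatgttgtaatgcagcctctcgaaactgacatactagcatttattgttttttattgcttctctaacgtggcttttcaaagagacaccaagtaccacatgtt
Slc24a5, chr2:125067877-125068126, plus strand: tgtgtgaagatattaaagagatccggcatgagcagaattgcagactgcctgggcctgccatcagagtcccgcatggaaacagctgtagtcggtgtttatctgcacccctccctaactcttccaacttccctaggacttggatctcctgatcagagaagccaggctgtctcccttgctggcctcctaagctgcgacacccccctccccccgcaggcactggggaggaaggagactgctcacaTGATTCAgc
The letters end 138 bases before the start in Slc2a9, 76 in Slc6a14, 90 in Slc9a9, 112 in Slc10a2 and 3 in Slc24a5, counted from the base next to the start. The cJUN peaks of these genes lay 4.39 kb or farther from the starts used in the peak list. Those starts, in mm9, were not matched to the starts of the windows, in GRCm38.p6. A match here therefore cannot be read as a site found by the immunoprecipitation. Sequence under the peaks was not analysed here.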

How the data were processed

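The data are 1 table of cJUN peaks from 1 immunoprecipitate and 1 input library. The submitters' processing notes name Bowtie 1.1.0, MACS 1.4 and the mm9 mouse build. How reads were filtered, which threshold made a peak and what assigned its genes is not given in the sources used here. Per peak, the fold deposited by the authors is a ratio to background. Score is 10 times the −log10 p of each peak, deposited by the authors. Both were used within this list alone. Coordinates are as deposited, and whether they count from 0 or 1 is not stated. Exons and introns were not analysed here. No library totals were used, so depth is unknown.

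Gene names were matched to a RefSeq table (GRCm38.p6), which was used for names and gene types (2870 of 2963 names matched, and all 45 Slc genes). Slc symbols that are not protein-coding (10 in the table) were left out of the shares. Where an interval is printed, it is an exact Clopper-Pearson 95% interval for a share and a binomial order-statistic interval for a median. The intervals were computed with scipy 1.17.1 in Python 3.11.15. These describe counting error over genes or peaks of 1 peak list. No test was made. The reading of gene lists from the peak table was tested on simulated data. The members and lists were chosen with earlier results of these data known. Genes named with their values were those of the nutrient and neurotransmitter lists, the 10 nearest to a peak, the 10 with the highest score, the 5 with the highest fold, those with 3 or more peaks and those sharing a peak; values of a few others were added after they were seen. Alternatives were a score at or above the median, a score from 100 up, a fold from 10 up, the nearest gene only, a limit of 50 kb, counting peaks with gaps of at most 1 kb once, and translating names to current symbols.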

Additional observations from a re-analysis of the deposited data

How the results depend on the processing

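With peaks at or above the median score, 38 peaks listed an Slc gene, 7.97% of Slc genes were listed (7.31% of all protein-coding genes) and 2 nutrient transporter genes were left. At a score of at least 100, 0 Slc genes, 0 peaks, 0% of Slc genes, 0 nutrient and 0 neurotransmitter transporter genes were left, against 0.644% of all protein-coding genes, and there was no distance to give. With the nearest gene only, 25 genes at 30 peaks were listed, or 6.43% (7.61% of all protein-coding genes), at a median distance of 78.5 kb (89.0 kb for all pairings kept). Within 50 kb, 18 genes at 19 peaks were listed, or 4.63% (4.46% of all), with a median distance of 31.1 kb (22.7 kb for all pairings) and 0 neurotransmitter transporter genes. These falls follow from keeping fewer pairings. A fold of at least 10, counting close peaks once and current symbols left each count within 1.5 times, and the share and the median distance within their intervals. No paired analysis was possible because there is 1 library per group and no test. Without replicates or depths, the chance that a weak peak would be called again is not known from this list.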

Other observations

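The deposited folds took a few values very often, so order by fold is coarse. A fold of exactly 18.42 was given to 18 of the 67 peaks at Slc genes (26.9%, exact interval 16.8 to 39.1) and to 635 of the 2674 other peaks (23.7%, 22.1 to 25.4). A fold of exactly 14.74 was given to 11 (16.4%, 8.49 to 27.5) and to 427 (16.0%, 14.6 to 17.4). A score below 60 was found at 27 of the 67 (40.3%, 28.5 to 53.0), against 44.1% (42.2 to 46.0) of the others. The lowest score of the whole list is 50.01.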
